A study of Rattus norvegicus with 9 samples.

Results

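The proteasome genes of rat primary chondrocytes were followed through stimulation with IL-1β and through co-culture with dermal fibroblasts. They were taken as the rows of the deposited expression table whose gene symbol starts with Psma to Psmg and a digit, which gave 49 of 17588 genes. The 9 libraries fall into 3 conditions of 3 libraries each. In the co-culture group, chondrocytes stimulated with IL-1β sat in the lower chamber of a transwell with dermal fibroblasts in the upper chamber. In the IL-1β group the same cells were stimulated without fibroblasts, and the control group was kept in routine culture without the cytokine. All cells are labelled wild type; for how long and at which dose IL-1β was given is not stated. Since the labels do not tie replicates to separate animals or cultures, the p-values rest on a spread between libraries that could be technical.

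The proteasome is the barrel-shaped protease that degrades proteins tagged with ubiquitin. Its 20S core is built of rings of α subunits, which gate the pore, around rings of β subunits, some of which carry the proteolytic sites. The 19S cap, with a ring of ATPases that unfold substrates and a set of non-ATPase subunits that bind and deubiquitinate them, sits on the core, and PA28 is an alternative cap. Interferons and other inflammatory cytokines induce Psmb8, Psmb9 and Psmb10, whose products take the places of the constitutive catalytic subunits Psmb5, Psmb6 and Psmb7 and form the immunoproteasome, together with the PA28 subunits Psme1 and Psme2. In chondrocytes the proteasome also takes part in NF-κB signalling, since it degrades the inhibitor IκB and trims the p105 precursor.

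The promoters of the 5 inducible genes, and of Tap1, the peptide transporter gene that lies head to head with Psmb9, are shown because these genes differ in how they changed. Each is the 250 bases before the annotated start, 5′ to 3′ on the strand of the gene, from RefSeq on the rat build GRCr8. Capitals mark the NF-κB consensus, the GAS motif TTCNNNGAA and the interferon response element core (GAAA, any 2 bases, GAAA), on either strand; no capitalised matches overlapped. Psmb9 lies at chr20:4668750-4668999 on the plus strand, Psmb8 at chr20:4657032-4657281 on the minus strand and Tap1 at chr20:4668544-4668793 on the minus strand. Psmb10 lies at chr19:50743293-50743542 on the minus strand. Psme2 lies at chr15:33052752-33053001 on the minus strand and Psme1 at chr15:33038721-33038970 on the plus strand.
Psmb9: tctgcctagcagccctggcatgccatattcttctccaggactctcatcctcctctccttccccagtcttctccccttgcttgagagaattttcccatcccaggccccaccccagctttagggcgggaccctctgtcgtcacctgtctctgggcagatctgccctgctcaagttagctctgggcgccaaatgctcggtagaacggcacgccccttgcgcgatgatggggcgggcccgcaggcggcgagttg
Psmb8: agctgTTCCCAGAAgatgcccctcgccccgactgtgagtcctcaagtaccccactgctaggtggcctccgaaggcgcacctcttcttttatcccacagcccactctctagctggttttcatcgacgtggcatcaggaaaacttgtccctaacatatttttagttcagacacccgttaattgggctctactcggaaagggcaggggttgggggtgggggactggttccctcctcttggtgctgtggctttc
Psmb10: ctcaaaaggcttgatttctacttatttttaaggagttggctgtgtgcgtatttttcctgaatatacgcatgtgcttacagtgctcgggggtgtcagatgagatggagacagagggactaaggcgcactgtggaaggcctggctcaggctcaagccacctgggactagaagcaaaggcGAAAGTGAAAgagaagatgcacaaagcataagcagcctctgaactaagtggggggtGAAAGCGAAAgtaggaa
Psme2: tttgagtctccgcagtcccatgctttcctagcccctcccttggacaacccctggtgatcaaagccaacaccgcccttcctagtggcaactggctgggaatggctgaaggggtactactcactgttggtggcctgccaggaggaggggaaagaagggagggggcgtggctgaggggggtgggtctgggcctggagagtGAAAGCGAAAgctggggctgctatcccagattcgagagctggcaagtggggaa
Psme1: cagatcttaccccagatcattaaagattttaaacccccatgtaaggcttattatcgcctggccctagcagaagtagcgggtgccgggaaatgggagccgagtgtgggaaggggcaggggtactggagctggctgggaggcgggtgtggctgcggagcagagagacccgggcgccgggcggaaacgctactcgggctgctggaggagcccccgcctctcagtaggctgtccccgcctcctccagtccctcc
Tap1: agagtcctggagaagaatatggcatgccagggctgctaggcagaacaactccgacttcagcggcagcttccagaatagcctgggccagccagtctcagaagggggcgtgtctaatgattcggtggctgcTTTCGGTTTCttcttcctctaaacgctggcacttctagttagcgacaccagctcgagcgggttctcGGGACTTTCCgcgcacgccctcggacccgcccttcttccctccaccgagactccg
The Psmb8 window held a GAS match that starts 245 bases before the gene's start, and the Psmb9 and Psme1 windows held none of the 3 motifs. Psmb10 held interferon cores 73 and 17 bases before its start, and Psme2 held one at 53. Tap1 held an interferon core at 121 and an NF-κB match at 55. A match is only a run of letters, not a measured binding site, and a window without one says nothing about the factor.

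Over the 33469 RefSeq windows of the same length, the NF-κB consensus was in 3.54%, GAS in 7.67% and the interferon core in 3.41%. Of the 49 proteasome genes 44 had a window; none held the NF-κB consensus, 4 held GAS (Psmb8, Psmc6, Psmd3 and Psmd7) and 5 the interferon core (Psma4, Psmb3, Psmb10, Psmd7 and Psme2). The antioxidant response core TGACNNNGC was in 7 of the 44 (Psma3, Psmb2, Psmb5, Psmb6, Psmd1, Psmd9 and Psme4) and in 10.1% of all windows. The GC box GGGCGG was in 31 of the 44 and in 30.5% of all windows, and CCAAT was in 21 of the 44 and in 34.0% of all windows. Both strands were searched for each motif, and matches to different motifs may overlap in windows that are not printed.

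Levels are FPKM (fragments per kilobase of transcript, scaled to sequencing depth), so they can be compared between genes. Among the 47 proteasome genes that passed the filter on low values, Psmb1, a constitutive β subunit, was the highest with a mean of 390 FPKM over the 9 libraries. Psmb9 was the lowest with 6.37 FPKM, next to Psmb8, Psmd10 and Psmb10. The 7 constitutive β genes averaged 170.4 to 390 FPKM and the 3 immunoproteasome genes 6.37 to 16.8 FPKM. Psma8, the testis α subunit, and Psmb11, the thymic β subunit, reached at most 0.04 and 0.06 FPKM and were not tested. Psmc3ip matches the symbol pattern but encodes a recombination factor. It is grouped apart from the subunits but is counted among the 49 matched genes, the 47 tested and the 44 with a promoter window.

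**Figure D1:**
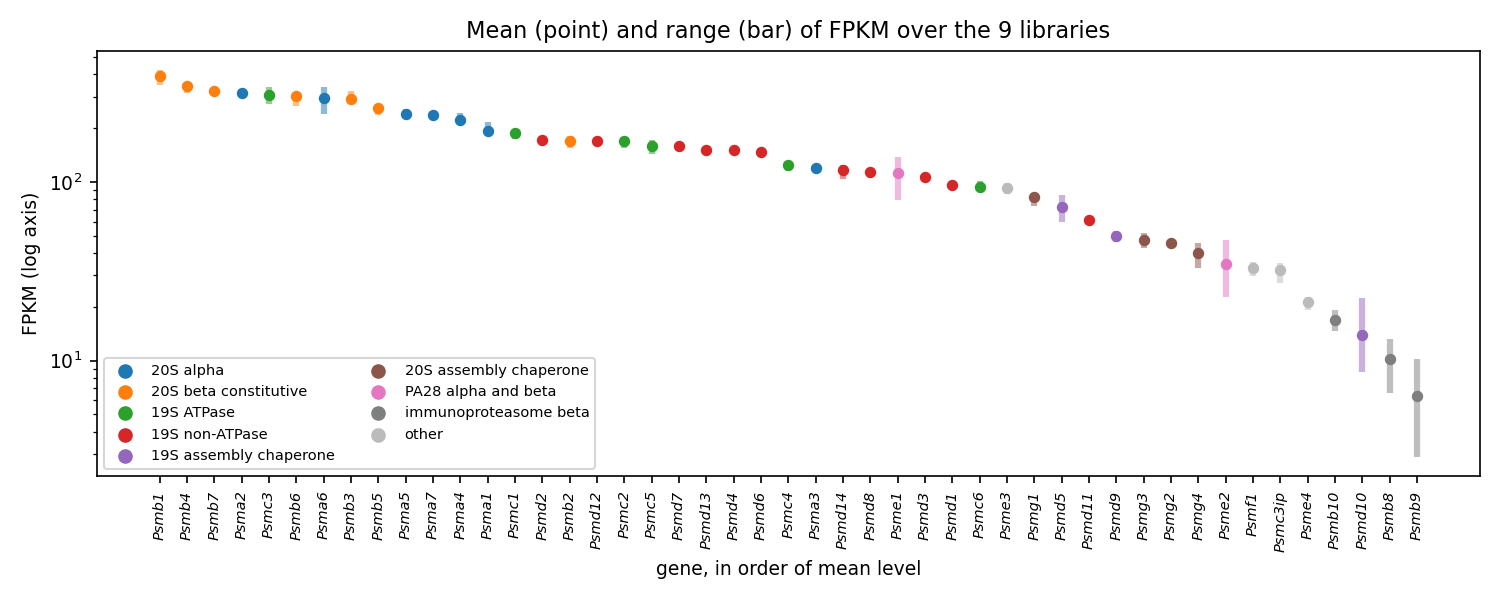
FPKM on a log axis for the 47 tested genes in order of mean level, coloured by role; points are means over the 9 libraries and bars run from the lowest to the highest library. The core and cap genes lie at the high end and Psmb9, Psmb8, Psmd10 and Psmb10 at the low end, and the bars of Psmb9, Psmd10 and Psme2 are among the widest.

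In the test, called means a limma adjusted p under 0.05, with changes on log2(FPKM + 1). Under IL-1β 9 proteasome genes were called higher and 10 lower than in control cells, 40.4% of those tested, where 46.7% of all 11732 genes tested were called (26.5% higher and 20.2% lower). With co-culture against IL-1β alone 10 were called higher and 5 lower, 31.9% of the proteasome genes, where 22.0% of all genes were called (11.9% higher and 10.1% lower). With co-culture against control 8 were called higher and 2 lower, 21.3%, where 33.9% of all genes were called (21.8% higher and 12.2% lower). On the values as deposited, the share called was thus below that of all genes in both comparisons with control. It was above that of all genes in the comparison of co-culture with IL-1β alone. For IL-1β against control this order depended on the settings, scaling among them. No test of these shares was made. Counted by libraries that did not overlap, 11 proteasome genes were higher and 12 lower under IL-1β (background 56.4%, 31.3% higher and 25.0% lower). With co-culture 14 were higher and 5 lower than under IL-1β (background 37.6%, 21.2% and 16.5%), and 13 were higher and 4 lower than control (background 46.5%, 29.6% and 17.0%). The comparisons share libraries and are not independent of each other. In bulk RNA, fewer cells of a type and less RNA per cell cannot be told apart.

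These splits depend on how libraries are scaled, since the FPKM of a library summed to 809839 to 811665 in co-culture, 796262 to 832248 under IL-1β and 771058 to 782435 in control cells. For IL-1β against control the proteasome split became 6 higher and 21 lower with a common sum, 6 and 12 with median-of-ratios scaling and 6 and 18 with quantile normalization. Of all genes 46.3%, 46.5% and 48% were called in these settings. With a common sum or quantile normalization the share of proteasome genes called was therefore above that of all genes. All genes split into 3109 higher and 2370 lower as deposited, and into 2249 and 3188, 2723 and 2732, and 2312 and 3325 under the same 3 scalings. For co-culture against control the proteasome split of 8 and 2 became 4 and 3, 4 and 2, and 4 and 5, and that of all genes, 2554 and 1427 as deposited, became 1541 and 2009, 1854 and 1869, and 1694 and 2073. For co-culture against IL-1β the split of 10 and 5 was 10 and 5, 8 and 5, and 10 and 5. That of all genes, 1393 and 1188 as deposited, became 1275 and 1089, 1156 and 1294, and 1446 and 1150. Which small changes of the constitutive genes were called against control therefore depended in part on the scaling. Among the core and cap genes, 5 calls for IL-1β against control stayed in all 16 alternative settings. These were Psma6, higher, and Psmc1, Psmc3, Psmc4 and Psmc5, lower.

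The inducible genes were led by Psmb9, the immunoproteasome β1i subunit. Psmb9 (gene 24967) had 5.47, 6.53 and 6.31 FPKM in the co-culture libraries, 10.28, 9.35 and 8.97 FPKM in the IL-1β libraries and 3.97, 2.90 and 3.55 FPKM in the control libraries. All co-culture libraries lay below all IL-1β libraries and above all control libraries, so the 3 groups did not overlap. By limma the log2 change was 1.24 (SE 0.096, adjusted p = 3.1e-06) for IL-1β against control, −0.57 (adjusted p = 0.00234) for co-culture against IL-1β and 0.67 (adjusted p = 0.000485) for co-culture against control.

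Psmb8 (gene 24968), the β5i subunit, had 8.67, 10.04 and 13.25 FPKM with co-culture, 12.68, 11.50 and 12.80 FPKM under IL-1β and 7.59, 9.02 and 6.61 FPKM in control cells. All IL-1β libraries exceeded all control libraries, while the co-culture libraries ran from the control range to above the IL-1β range. The log2 change by limma was 0.62 (SE 0.137, adjusted p = 0.00444) for IL-1β against control. It was −0.21 (adjusted p = 0.31) for co-culture against IL-1β, and 0.41 (adjusted p = 0.0455) for co-culture against control. That last call was lost in 11 of the 16 alternative settings, with adjusted p up to 0.151.

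Psmb10 (gene 291983), the β2i subunit, had 16.28, 16.34 and 16.07 FPKM with co-culture, 17.41, 19.28 and 14.69 FPKM under IL-1β and 16.82, 17.48 and 16.95 FPKM in control cells. The IL-1β libraries spread on both sides of the other groups, and the co-culture libraries lay just below the control libraries. No limma comparison called it (adjusted p = 0.969, 0.598 and 0.529 for IL-1β against control, co-culture against IL-1β and co-culture against control). The immunoproteasome genes thus did not share one pattern: of the 3, 2 were called higher under IL-1β, where 26.5% of all genes were, and the third was not called.

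Both PA28 subunits were higher in the stimulated groups than in control cells. RefSeq lists 3 pseudogene copies of each, so their reads may have been split. Psme1 (gene 29630), PA28α, had 121.51, 121.37 and 127.69 FPKM with co-culture, 137.86, 126.69 and 128.92 FPKM under IL-1β and 82.68, 85.60 and 79.53 FPKM in control cells. Both stimulated groups lay wholly above control, and they overlapped each other. The log2 change was 0.66 (SE 0.040, adjusted p = 5.62e-07) for IL-1β and 0.57 (adjusted p = 3.28e-06) for co-culture against control, and −0.09 (adjusted p = 0.169) between co-culture and IL-1β, by limma. Psme2 (gene 29614), PA28β, had 37.72, 32.96 and 37.61 FPKM with co-culture, 43.70, 42.17 and 47.30 FPKM under IL-1β and 24.01, 23.05 and 22.58 FPKM in control cells. No groups overlapped for Psme2, with co-culture between the others. Its log2 change was 0.91 (SE 0.059, adjusted p = 9.02e-07) for IL-1β against control, −0.29 (adjusted p = 0.00652) for co-culture against IL-1β and 0.61 (adjusted p = 3.24e-05) for co-culture against control, by limma.

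**Figure D2:**
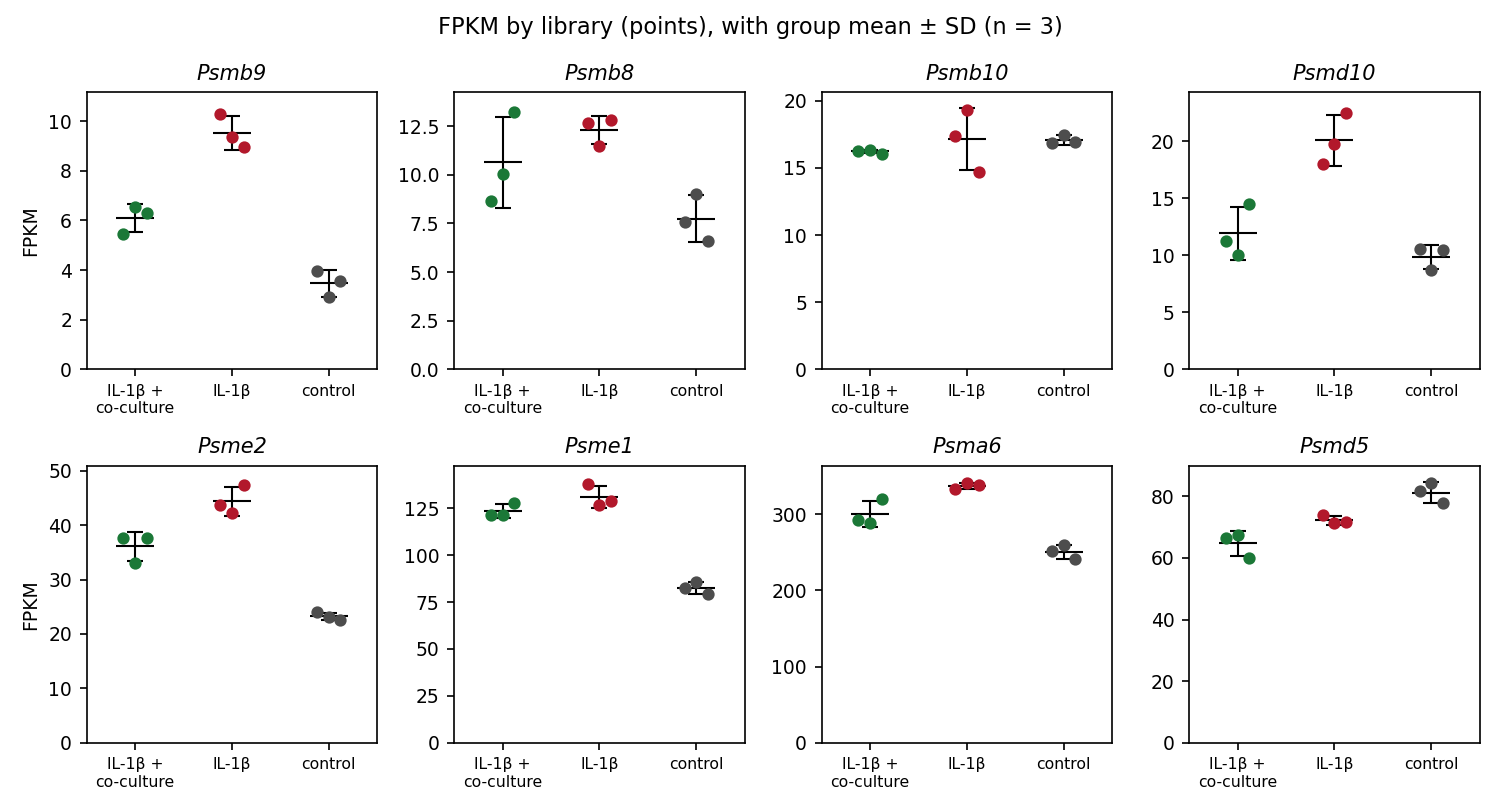
FPKM in each library (points) with the group mean and SD (bars, n = 3) for 8 genes, co-culture with IL-1β at the left, IL-1β in the middle and control at the right. Psmb9, Psme2 and Psma6 separate into 3 levels with IL-1β highest. The IL-1β libraries of Psmb10 overlap both other groups, and Psmd5 is highest in control.

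Together the 5 inducible genes summed to 193 ± 7.31 FPKM with co-culture, 214.5 ± 6.67 FPKM under IL-1β and 134.1 ± 4.49 FPKM in control cells (SD, n = 3 each), of which Psme1 makes up the largest part. The 3 immunoproteasome genes alone summed to 33.0 ± 2.61, 39.0 ± 2.19 and 28.3 ± 1.15 FPKM in co-culture, IL-1β and control libraries (SD, n = 3 each). As a share of the summed constitutive β genes, which does not depend on library scaling, they came to 1.55% ± 0.120, 1.93% ± 0.161 and 1.36% ± 0.0223 in the same order (SD, n = 3 each).

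The ratio of each inducible subunit to the constitutive one it replaces was taken within each library. Psmb9 came to 1.97% ± 0.143 of Psmb6 with co-culture, 3.29% ± 0.229 under IL-1β and 1.14% ± 0.186 in control cells (SD, n = 3 each). The groups did not overlap in any of the 3 comparisons, with exact permutation p = 0.1 in each, the smallest that 3 against 3 libraries allow. Psmb8 came to 4.02% ± 0.894, 4.84% ± 0.0353 and 2.96% ± 0.392 of Psmb5 in co-culture, IL-1β and control libraries (SD, n = 3 each). Its two-sided exact permutation p was 0.1 for IL-1β against control, 0.4 for co-culture against IL-1β and 0.2 for co-culture against control. Psmb10 came to 4.92% ± 0.143, 5.49% ± 0.754 and 5.28% ± 0.107 of Psmb7 (SD, n = 3 each), with exact permutation p = 0.7, 0.3 and 0.1 for the same comparisons. In all 15 such tests were run, 6 of them on pairs chosen after their values were seen (Psme2 to Psme1 and Psmd10 to Psmd5), and the smallest adjusted exact permutation p was 0.15, so no ratio passed at this sample size. No comparison called the constitutive partners themselves. Psmb5, the chymotrypsin-like subunit, had 274.53, 252.89 and 268.07 FPKM with co-culture, 263.50, 238.43 and 262.40 FPKM under IL-1β and 257.95, 269.02 and 257.36 FPKM in control cells. Psmb6, the caspase-like subunit, had 303.58, 316.96 and 309.61 FPKM with co-culture, 308.80, 267.82 and 295.12 FPKM under IL-1β and 303.88, 308.60 and 301.32 FPKM in control cells. Psmb7, the trypsin-like subunit, had 329.76, 323.43 and 337.04 FPKM with co-culture, 323.75, 306.51 and 306.37 FPKM under IL-1β and 316.05, 338.59 and 315.95 FPKM in control cells. The groups overlapped in each comparison for all 3 genes, and IL-1β replicate 2 was the lowest library for Psmb5 and Psmb6.

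**Figure D3:**
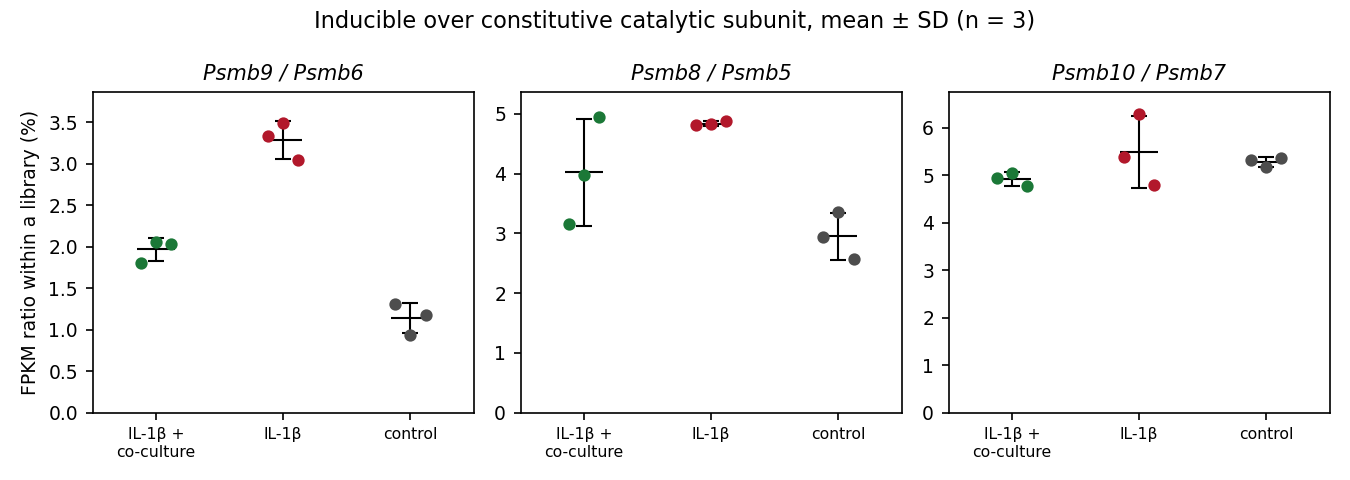
FPKM of each inducible catalytic subunit as a percent of the constitutive subunit it replaces, in each library (points) with the group mean and SD (bars, n = 3), co-culture left of IL-1β left of control. Psmb9 over Psmb6 separates all 3 groups, Psmb8 over Psmb5 is tight under IL-1β and spread with co-culture, and Psmb10 over Psmb7 overlaps between IL-1β and the other groups.

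In the 20S core, Psma6, an α ring subunit, stood out from the others. It had 291.97, 288.14 and 319.74 FPKM with co-culture, 333.22, 341.06 and 338.82 FPKM under IL-1β and 251.59, 259.66 and 240.93 FPKM in control cells. The 3 groups did not overlap. The log2 change by limma was 0.43 (SE 0.042, adjusted p = 1.86e-05) for IL-1β against control, −0.17 (adjusted p = 0.0162) for co-culture against IL-1β and 0.26 (adjusted p = 0.00114) for co-culture against control. The call with co-culture was lost without IL-1β replicate 2 (log2 change −0.16, adjusted p = 0.0513), IL-1β replicate 3 (−0.17, adjusted p = 0.05) or co-culture replicate 2 (−0.14, adjusted p = 0.0622). RefSeq lists 5 pseudogene copies of Psma6, so its reads may have been split. In the GRCr8 gene order Psma6 lies between Prorp, 3113 bases away, and Nfkbia, 62150 bases away. Whether these neighbours share regulation with Psma6 was not tested. Prorp, listed as RGD1305089, had 7.10 ± 1.19 FPKM with co-culture, 7.68 ± 0.403 FPKM under IL-1β and 5.45 ± 0.368 FPKM in control cells (SD, n = 3 each). Nfkbia is the IκBα gene and an NF-κB target; it had 53.2 ± 6.70 FPKM with co-culture, 110.0 ± 2.25 FPKM under IL-1β and 12.4 ± 0.439 FPKM in control cells (SD, n = 3 each).

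Of the other 6 α genes, Psma2 was called higher under IL-1β and with co-culture against control, and Psma5 with co-culture against control, at log2 changes of 0.10 to 0.11. Psma2 had 309.66, 330.07 and 331.37 FPKM with co-culture, 318.51, 318.34 and 327.26 FPKM under IL-1β and 294.63, 304.33 and 303.02 FPKM in control cells, and Psma5 had 243.07, 256.11 and 256.39 FPKM with co-culture, 247.40, 235.92 and 237.16 FPKM under IL-1β and 229.99, 233.89 and 235.92 FPKM in control cells. Both are α ring subunits. The control libraries of Psma2 lay below all others, and those of Psma5 lay below the co-culture libraries and met the IL-1β range. These calls were each lost in 7 or 8 of the 16 settings, common-sum scaling among them. None of the 7 constitutive β genes was called by limma in any comparison. The background was 46.7% for IL-1β against control, 22.0% for co-culture against IL-1β and 33.9% for co-culture against control. At an unadjusted p under 0.05, 1 was higher and 1 lower for IL-1β against control, 2 were higher for co-culture against IL-1β and 1 was higher for co-culture against control. With a common FPKM sum, however, 5 of the 7 (Psmb1, Psmb4, Psmb5, Psmb6 and Psmb7) were called lower under IL-1β. In that setting 27.2% of all genes were called lower, against 20.2% as deposited. The assembly chaperones Psmg1 to Psmg4, which help build the α ring, had none called by limma, against the same background shares, and none at an unadjusted p under 0.05.

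Of the 6 ATPases of the 19S cap, Psmc1 to Psmc6, 5 were called lower under IL-1β than in control (background 20.2%), and with co-culture all 6 were called higher than under IL-1β alone (background 11.9%). Their log2 changes were small, −0.27 to −0.07 for IL-1β against control and 0.12 to 0.17 for co-culture against IL-1β. With co-culture the 6 genes had no library that overlapped the IL-1β libraries, which was so of 21.2% of all genes in that direction. Over the alternative settings 4 to 6 were called lower under IL-1β and 4 to 6 higher with co-culture.

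Psmc3, the ATPase Rpt5, had the largest change of the 6 for IL-1β against control. It had 311.41, 313.07 and 310.35 FPKM with co-culture, 280.64, 279.77 and 272.80 FPKM under IL-1β and 331.95, 339.99 and 335.11 FPKM in control cells. The groups did not overlap, and co-culture lay between the others. The log2 change by limma was −0.27 (SE 0.023, adjusted p = 5.64e-06) for IL-1β against control, 0.17 (adjusted p = 0.000701) for co-culture against IL-1β and −0.11 (adjusted p = 0.00516) for co-culture against control.

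Psmc5, the ATPase Rpt6, had 155.43, 165.57 and 170.77 FPKM with co-culture, 148.67, 145.81 and 143.34 FPKM under IL-1β and 167.85, 169.47 and 172.15 FPKM in control cells. The IL-1β libraries were the lowest, and co-culture overlapped control. Its log2 change was −0.22 (adjusted p = 0.000614) for IL-1β against control and 0.17 (adjusted p = 0.00804) for co-culture against IL-1β, by limma. Psmc1, the ATPase Rpt2, had 194.30, 194.43 and 189.19 FPKM with co-culture, 174.79, 174.60 and 178.95 FPKM under IL-1β and 193.33, 196.15 and 194.72 FPKM in control cells. Here too the IL-1β libraries were the lowest and co-culture overlapped control, with log2 changes of −0.14 (adjusted p = 0.000686) and 0.13 (adjusted p = 0.0039) for the same 2 comparisons, by limma. Psmc4, the ATPase Rpt3, changed by −0.13 (adjusted p = 0.00372) and 0.14 (adjusted p = 0.0061), by limma. It has 3 pseudogene copies in RefSeq, so its reads may have been split.

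The weakest of the ATPases were Psmc6, whose call for IL-1β against control was lost in 8 of the 16 settings (adjusted p up to 0.147), and Psmc2. Psmc2 changed by −0.07 (adjusted p = 0.139) for IL-1β against control, and its call for co-culture against IL-1β was lost in 10 of 16 (adjusted p up to 0.138). As a percent of the summed 19S non-ATPase genes, a measure free of library scaling, the ATPases summed to 72.4% ± 0.490 with co-culture, 67.8% ± 0.933 under IL-1β and 76.1% ± 0.786 in control cells (SD, n = 3 each). No library of one group overlapped another in this ratio, which was computed after the single genes were seen and is given without a test.

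**Figure D4:**
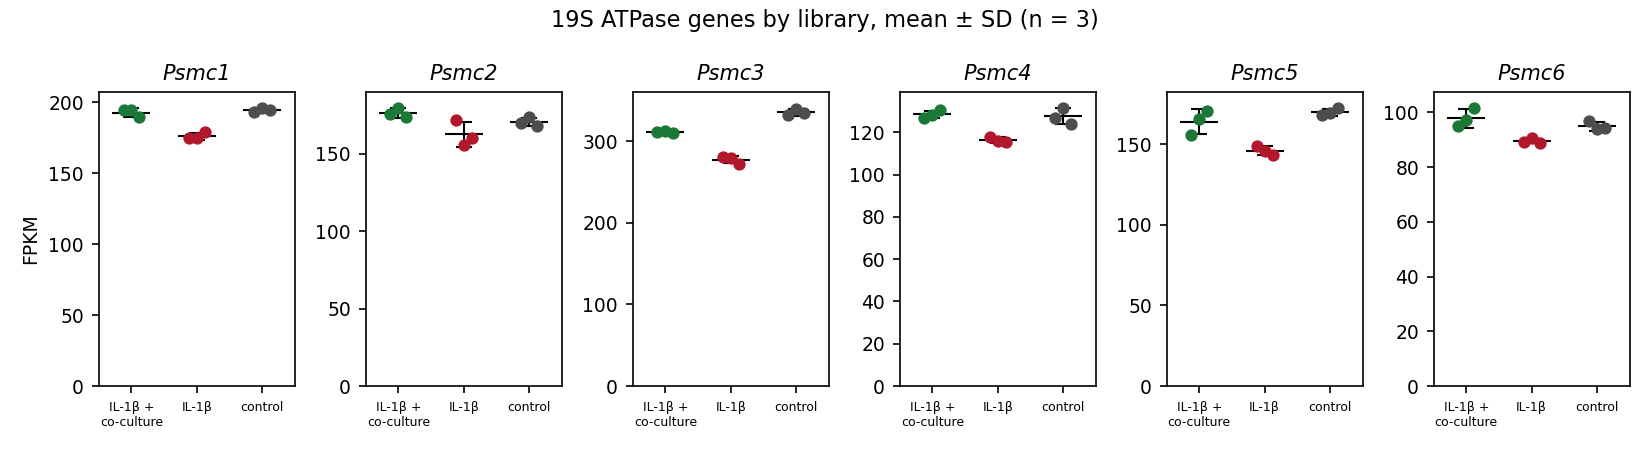
FPKM of the 6 ATPase genes in each library (points) with the group mean and SD (bars, n = 3), co-culture left of IL-1β left of control, with axes that start at 0. In each panel the IL-1β libraries lie below the co-culture libraries; for Psmc3 co-culture also lies below control.

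Of the 11 non-ATPase subunits, 4 (36.4%) were called for IL-1β against control (background 46.7%), 2 (18.2%) for co-culture against IL-1β (background 22.0%) and 1 (9.09%) for co-culture against control (background 33.9%). Psmd2, the scaffold Rpn1, and Psmd8 were called higher under IL-1β, and Psmd13 and Psmd14, the deubiquitinase Rpn11, were called lower. Psmd13 and Psmd14 were called higher with co-culture against IL-1β, at log2 changes of 0.11 and 0.16, and Psmd2 was called higher with co-culture against control. Psmd14 had 118.65, 124.96 and 124.98 FPKM with co-culture, 114.25, 104.58 and 111.30 FPKM under IL-1β and 117.44, 121.46 and 118.29 FPKM in control cells. Psmd13 had 153.61, 157.90 and 157.62 FPKM with co-culture, 146.97, 142.10 and 146.66 FPKM under IL-1β and 154.22, 155.96 and 152.13 FPKM in control cells, and Psmd2 had 177.07, 181.85 and 170.69 FPKM with co-culture, 177.98, 171.41 and 175.07 FPKM under IL-1β and 163.78, 165.57 and 162.49 FPKM in control cells. The IL-1β libraries of Psmd13 and Psmd14 lay below all others, whereas the control libraries of Psmd2 lay below all others. All these changes were between −0.11 and 0.16, and each call was lost in 1 to 8 of the 16 settings, with no change of sign. For Psmd8 the log2 change ran from 0.02 to 0.11 over the settings, and the adjusted p reached 0.676.

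The 19S assembly chaperones differed from each other. Psmd10, gankyrin, which binds the ATPase Psmc4, had 11.21, 10.00 and 14.51 FPKM with co-culture, 18.01, 19.77 and 22.46 FPKM under IL-1β and 10.50, 8.66 and 10.43 FPKM in control cells. The IL-1β libraries lay above all others, and co-culture overlapped control. Its log2 change by limma was 0.96 (SE 0.127, adjusted p = 0.000162) for IL-1β against control, −0.72 (adjusted p = 0.00314) for co-culture against IL-1β and 0.24 (adjusted p = 0.181) for co-culture against control. RefSeq names no copy of Psmd10. Its head-to-head neighbour Atg4a, an autophagy protease gene, was not called in any comparison.

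Psmd5, the chaperone S5b, had 66.38, 67.58 and 60.10 FPKM with co-culture, 73.96, 71.29 and 71.53 FPKM under IL-1β and 81.73, 84.20 and 77.74 FPKM in control cells. The groups did not overlap, and co-culture was the lowest. Its log2 change by limma was −0.17 (adjusted p = 0.0155) for IL-1β against control, −0.16 (adjusted p = 0.0366) for co-culture against IL-1β and −0.33 (adjusted p = 0.000525) for co-culture against control. The co-culture against IL-1β call was lost in 7 of the 16 settings, and the IL-1β against control call without control replicate 2 (adjusted p = 0.0587). Psmd9, the third chaperone, had 51.61, 50.62 and 53.24 FPKM with co-culture, 46.18, 46.29 and 49.88 FPKM under IL-1β and 50.89, 49.57 and 50.69 FPKM in control cells. It was called higher with co-culture against IL-1β, at a log2 change of 0.13, with no overlap between these groups, and that call was lost in 8 of 16.

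Of the other activators, Psme3 was lower under IL-1β than in both other groups. RefSeq lists 4 pseudogene copies of Psme3, so its reads may have been split. Psme3, the nuclear activator PA28γ, had 95.77, 98.41 and 94.66 FPKM with co-culture, 87.98, 85.93 and 85.28 FPKM under IL-1β and 92.97, 97.15 and 97.09 FPKM in control cells. The IL-1β libraries lay below all others. Its log2 change by limma was −0.15 (adjusted p = 0.00226) for IL-1β against control and 0.15 (adjusted p = 0.0044) for co-culture against IL-1β. Psme4, the activator PA200, had 20.71, 21.41 and 22.03 FPKM with co-culture, 19.33, 20.36 and 20.04 FPKM under IL-1β and 22.04, 22.11 and 22.72 FPKM in control cells. All IL-1β libraries lay below all others, and it was called lower under IL-1β, by −0.16 (adjusted p = 0.00622). Psmf1, the inhibitor PI31, was not called.

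**Figure D5:**
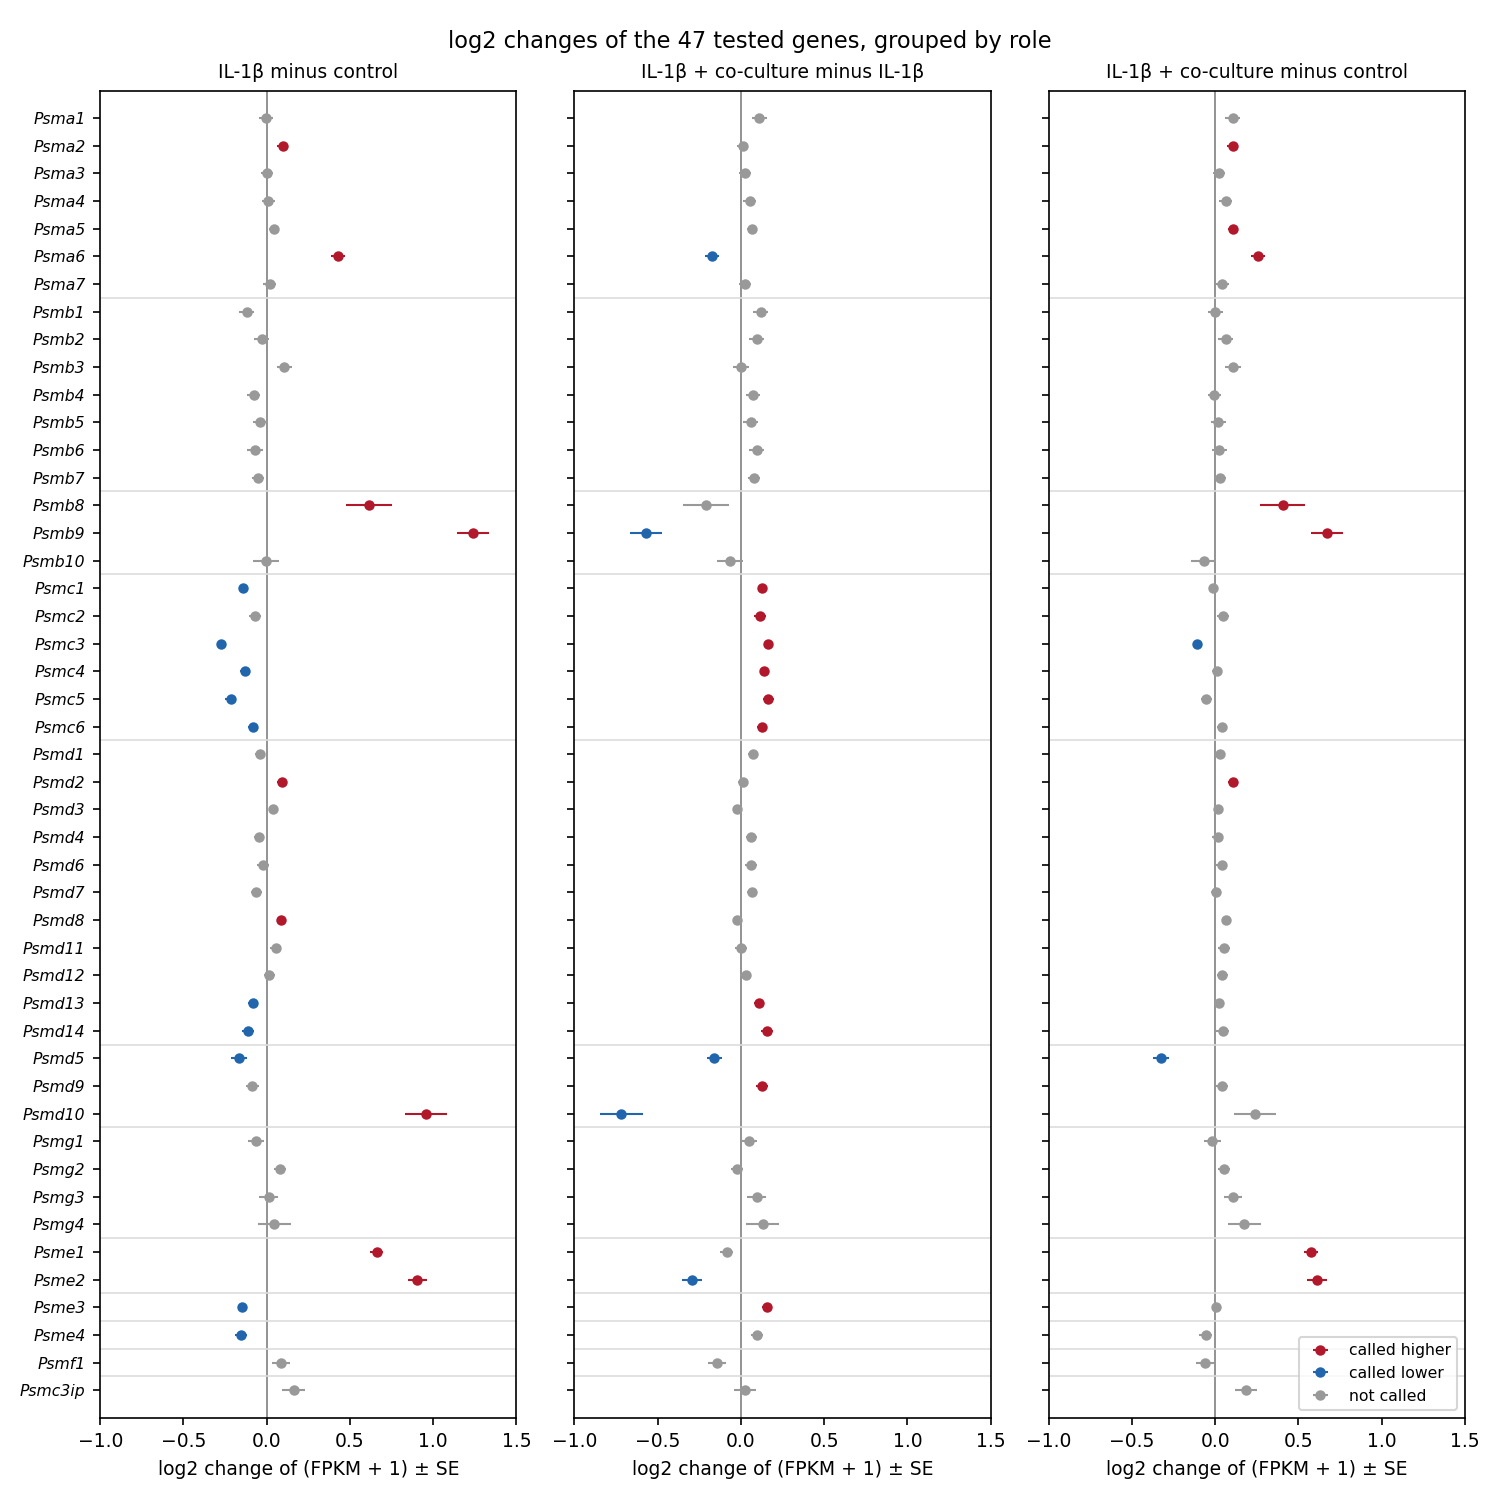
log2 change of FPKM + 1 with its standard error for the 47 tested genes, grouped by role from the α ring at the top to Psmc3ip at the bottom, for IL-1β minus control, co-culture minus IL-1β and co-culture minus control. Red and blue points were called higher and lower by limma; the ATPases lie left of 0 in the first panel and right of it in the second, opposite to Psmb9, Psmd10 and Psme2.

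The pathway around the proteasome was read from lists. Of 16 tested antigen processing genes, 13 were called higher under IL-1β (background 26.5%). With co-culture against IL-1β, 1 was called higher (background 11.9%) and 6 lower (background 10.1%), and with co-culture against control 9 were called higher (background 21.8%). Tap1, the transporter that feeds peptides to MHC class I, had 6.54 ± 0.134 FPKM with co-culture, 8.55 ± 0.357 FPKM under IL-1β and 5.72 ± 0.316 FPKM in control cells (SD, n = 3 each). B2m, the class I light chain, changed by 0.56 under IL-1β and fell by 0.15 with co-culture against IL-1β. RT1-A2, a class I heavy chain, changed by 1.11 and −0.29; class I genes form a multigene family whose reads may have been split. The median log2 change of the list was 0.31, −0.09 and 0.20 for IL-1β against control, co-culture against IL-1β and co-culture against control, where all genes had 0.02, 0.02 and 0.04.

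Of 13 transcription factors of proteasome genes and their processing factors, 8 were called higher under IL-1β (background 26.5%), 3 lower with co-culture against IL-1β (background 10.1%) and 4 higher with co-culture against control (background 21.8%). Nfkb1, which encodes p105, had 44.2 ± 1.57 FPKM with co-culture, 62.7 ± 0.647 FPKM under IL-1β and 23.4 ± 0.373 FPKM in control cells (SD, n = 3 each). Rela, the p65 subunit, changed by 0.34 for IL-1β against control and by −0.20 for co-culture against IL-1β. Nfe2l1, the factor that raises proteasome genes when the proteasome is inhibited, had adjusted p = 0.985 for IL-1β against control by limma. Of 20 other proteasome-bound factors, 1 was called higher (background 26.5%) and 4 lower (background 20.2%) under IL-1β; Zfand5, a proteasome-activating zinc finger protein, was the one higher, by 0.32, and fell by 0.23 with co-culture against IL-1β. Of 6 ubiquitin and E1 genes limma called none under IL-1β, and none had an unadjusted p under 0.05.

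Cell type markers also moved. The 9 chondrocyte markers summed to 618.6 to 675.4 FPKM with co-culture, 439.4 to 459.3 FPKM under IL-1β and 1904 to 1988 FPKM in control cells. All 9 were called lower than control in both stimulated groups (background 20.2% under IL-1β and 12.2% with co-culture). The 9 dermal fibroblast markers summed to 606.3 to 699.6 FPKM with co-culture, 1166 to 1229 FPKM under IL-1β and 192.2 to 205.8 FPKM in control cells, mostly from Lum and Dcn. Only 4 of the 9 were tested (Lum, Dcn, Pdgfra and Twist2), and all 4 were called higher under IL-1β (background 26.5%). Of the low, untested ones, Cd34 averaged 0.50, 0.54 and 1.10 FPKM in co-culture, IL-1β and control libraries. Clec3b and Dpp4 (at most 0.11 FPKM) also had their highest mean in control cells, whereas Pi16 and Entpd1 had theirs with co-culture. The 5 skeletal muscle markers summed to 311.6 to 353.9 FPKM with co-culture, 320.8 to 348.2 FPKM under IL-1β and 143.3 to 146.9 FPKM in control cells. All 5 were called higher than control in both stimulated groups (background 26.5% under IL-1β and 21.8% with co-culture). The part of these shifts in the proteasome changes was not tested. The 9 leukocyte and macrophage markers summed to 8.23 to 9.95 FPKM with co-culture, 8.78 to 9.68 FPKM under IL-1β and 14.8 to 15.5 FPKM in control cells. Without Lyz2 the other 8 summed to 6.19 to 7.18 FPKM with co-culture, 6.88 to 7.71 FPKM under IL-1β and 5.53 to 6.46 FPKM in control cells. Of the 9 leukocyte and macrophage markers 4 were tested, and limma called 1 higher and 2 lower in each stimulated group against control. The background was 26.5% higher and 20.2% lower under IL-1β, and 21.8% and 12.2% with co-culture. Cd68, the one higher, averaged 2.68 FPKM with co-culture, 3.66 FPKM under IL-1β and 2.02 FPKM in control cells. It was also called lower with co-culture than under IL-1β (background 10.1%). Lyz2 was called lower in both stimulated groups, Laptm5 under IL-1β (lost in 6 of 15 alternative settings) and Adgre1 with co-culture. Ptprc, the pan-leukocyte CD45 gene, did not exceed 0.1 FPKM in any library.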

How the data were processed

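Messenger RNA of rat primary chondrocytes was captured with oligo(dT) beads and sequenced, per the labels' protocols. Per the file headers, the authors deposited FPKM values of 17588 genes for each of the 9 libraries. Which aligner and counter made them is not given in the sources used here. GRCm38, which is a mouse build, is named in the submitters' processing notes, whereas the labels give rat. The rat RefSeq GRCr8 table held 16396 (93.2%) of the table's gene identifiers, and the build used for alignment is unsettled. Strandedness is not given, so overlapping and antisense genes may share reads, and members with a named copy in RefSeq (19 of 49) may have had reads split. The table holds no counts. Steps between low values put the worth of 1 read at 0.994 to 1.07 of the first control library, on 28 to 43 genes each; absolute depth is unknown, and precision rests on the 3 libraries a group.

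Groups came from sample titles. All 9 libraries entered a limma fit (limma 3.58.1 under R 4.3.3) on log2(FPKM + 1), pseudocount 1, without rescaling and with a mean-variance trend. It took the 11732 genes that reached 1 FPKM in 3 or more libraries. Benjamini-Hochberg adjustment ran over all genes of each of 3 comparisons, and genes were called at adjusted p under 0.05. This scale understates changes of low genes. Ratios used two-sided exact permutation tests. The fit was tested on simulated data. The rule for full values took the inducible genes and their constitutive partners and, in each class, up to 3 called members with the largest change. Members, lists and this rule were chosen with earlier results of these data known. Alternatives were the pseudocount, the filter, 3 scalings, the trend, the libraries fitted, a replicate block and leaving out each library; 16 applied to each comparison. Figures were drawn with matplotlib.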

Additional observations from a re-analysis of the deposited data

How the results depend on the processing

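Of the 19, 15 and 10 proteasome calls for IL-1β against control, co-culture against IL-1β and co-culture against control, 12, 8 and 6 stayed called in all 16 alternative settings. How many calls of all genes stayed was not counted. The genes called lower under IL-1β numbered 10, but 21 with a common FPKM sum and 18 with quantile normalization, and 6 to 13 when each library was left out in turn (6 without control replicate 2). The background was 20.2% as deposited, 27.2% and 28.3% with those scalings, and 17.8% to 18.1% with a library left out. The 5 genes called lower with co-culture against IL-1β numbered 3 to 5 when a library was left out (3 without IL-1β replicate 2 or 3). There the background went from 10.1% to between 7.88% and 9.38%. The 8 genes called higher with co-culture against control numbered 4 with a common sum, median-of-ratios scaling, quantile normalization or no trend, and 4 to 8 when a library was left out (4 without control replicate 1 or co-culture replicate 2, 5 without co-culture replicate 3). The background was 21.8% as deposited, and 13.1%, 15.8%, 14.4% and 20.5% in those settings in the same order. With a library left out it was 17.7% to 20.2%. The 2 called lower with co-culture against control numbered 5 with quantile normalization, where the background went from 12.2% to 17.7%. The cause of these shifts was not tested. The log2 difference of Psmb10 over Psmb7 for IL-1β against control, 0.05, ran from −0.06 (without IL-1β replicate 2) to 0.14 (without IL-1β replicate 3) when a library was left out. For Psmb8 over Psmb5, −0.29 for co-culture against IL-1β became −0.13 without co-culture replicate 1 and −0.45 without co-culture replicate 3, and 0.43 for co-culture against control became 0.59 and 0.27 without those libraries. Among single genes, 2104 of 2256 values stayed on their side of the threshold, 108 lost it and 44 gained it; 130 values changed sign, all of them called neither with all settings as reported nor under the alternative. Same-numbered libraries deviated together at r of −0.091 to 0.085 over all genes, so the numbers were not taken as pairs; over the proteasome genes r was 0.16 to 0.351 between co-culture and IL-1β, and −0.217 to 0.062 in the other comparisons. With a replicate block 9 and 8, 9 and 5, and 7 and 2 proteasome genes were called higher and lower in the 3 comparisons. The background in that setting was 25.1% and 19.2%, 10.2% and 9.14%, and 20.2% and 11.2%. Without counts, depth limits could not be given.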
